A study of Mus musculus with 24 samples.

Results

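The genes described here were 8 mouse genes that eosinophils are known for: Prg2, Prg3, Epx, Ear2, Il5ra, Ccr3, Siglecf and Alox15. They were picked by name, through the gene symbol or the RefSeq transcript that the array design gives for a probe, and all 8 were found, on 9 of 39429 probes and as 8 of the 32451 genes or transcripts measured. The values were one-colour Agilent array signals of RNA of CD11b+ cells, taken from spleen and from bone marrow of male mice on a Balb/C background, 10 weeks old, which were WT, HDC-KO (lacking histidine decarboxylase, the enzyme that makes histamine) or STAT6-KO (lacking the transcription factor that carries IL-4 and IL-13 signals). Each genotype was studied without infarction (control) and at 1, 2 and 4 weeks after myocardial infarction (MI). There were 24 such conditions, and the cells of 5 mice were pooled for the single array of each. CD11b is an integrin chain that neutrophils, monocytes, macrophages, eosinophils and basophils share, so that each pool was a mixture of myeloid cells and the eosinophils in it were not sorted. A gene was therefore measured per mixture, and fewer eosinophils cannot be told apart from less of an RNA per eosinophil.

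Eosinophils arise in the bone marrow from granulocyte progenitors under GATA, C/EBP and PU.1 factors, and IL-5 drives their expansion and release. Their granules are filled during this marrow stage with major basic protein (Prg2) and its homologue (Prg3), eosinophil peroxidase (Epx) and small ribonucleases (the Ear family). Mature eosinophils carry the IL-5 receptor alpha chain (Il5ra), the eotaxin receptor CCR3 (Ccr3) and the inhibitory lectin Siglec-F (Siglecf). Alox15 is a lipoxygenase that oxidises arachidonic acid and is also made by resident macrophages. Siglecf is shared with some macrophages, and Prg2 with basophils and mast cells. These are examples and not a full list. Whether other cells of the pools also made Ear2, Il5ra or the rest of the genes was not tested.

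Of the 24 arrays 22 were complete, 11 from spleen and 11 from bone marrow. The HDC-KO spleen control array and the STAT6-KO bone marrow MI 1 week array held a small number of spots, none of them for these genes, and were not used here. Slides were identified by the scan date in the file headers, which gave 6 groups of 4 arrays, each taken as 1 slide. A slide carried all 4 times of a single genotype in a single tissue. Neither genotype within a tissue nor tissue within a genotype can therefore be told apart from slide. If the times kept the same positions on every slide, time after MI cannot be told apart from position either. Hdc was lower on all HDC-KO arrays (1.67 to 2.78 on the log2 scale explained next) than on the WT arrays (4.31 to 5.51). Stat6 lay at 1.76 to 2.44 on the STAT6-KO arrays and at 2.38 to 3.70 on the WT arrays, so that these ranges touched. These values are of the brightest of 3 Stat6 probes. On the other 2, the spleen array labelled STAT6-KO at MI 4 weeks (0.73 and 0.19) fell inside the WT range, which ran from 0.04 to 1.29 and from -0.43 to 1.98, so this library goes against its label there. The differences between tissues, and those of STAT6-KO in spleen, are also given without it.

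Levels are given as log2 of the spot signal minus log2 of the 75th percentile of the signals of that array, so that 0 is the level of a probe at that percentile and a difference of 1 is a doubling. For each of the 8 genes, levels were compared between arrays on 1 probe at a time. Every probe of the 8 genes was well above background on all 22 arrays, except that of Epx, which was not well above background on the STAT6-KO spleen MI 4 weeks array (signal 12.1, where the lowest signal of a probe well above background was 11.5). Ear2 was the steadiest, between 3.65 and 4.67 over the 22 arrays. Prg2 spanned -2.94 to 3.46 and Epx -6.27 to -0.12. Siglecf had 2 probes: the brighter one, used for the values that follow, lay between -0.48 and 1.55, and the dimmer one between -5.30 and -3.17. The 2 probes ran together in spleen (r = 0.769 over 11 arrays) but not in bone marrow (r = -0.369 over 11 arrays), and the main results for Siglecf are given for both. Ear2 belongs to a family of near-identical copies, and its probe may also take up RNA of Ear1 and other paralogs, so its values are uncertain in this respect.

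**Figure D1:**
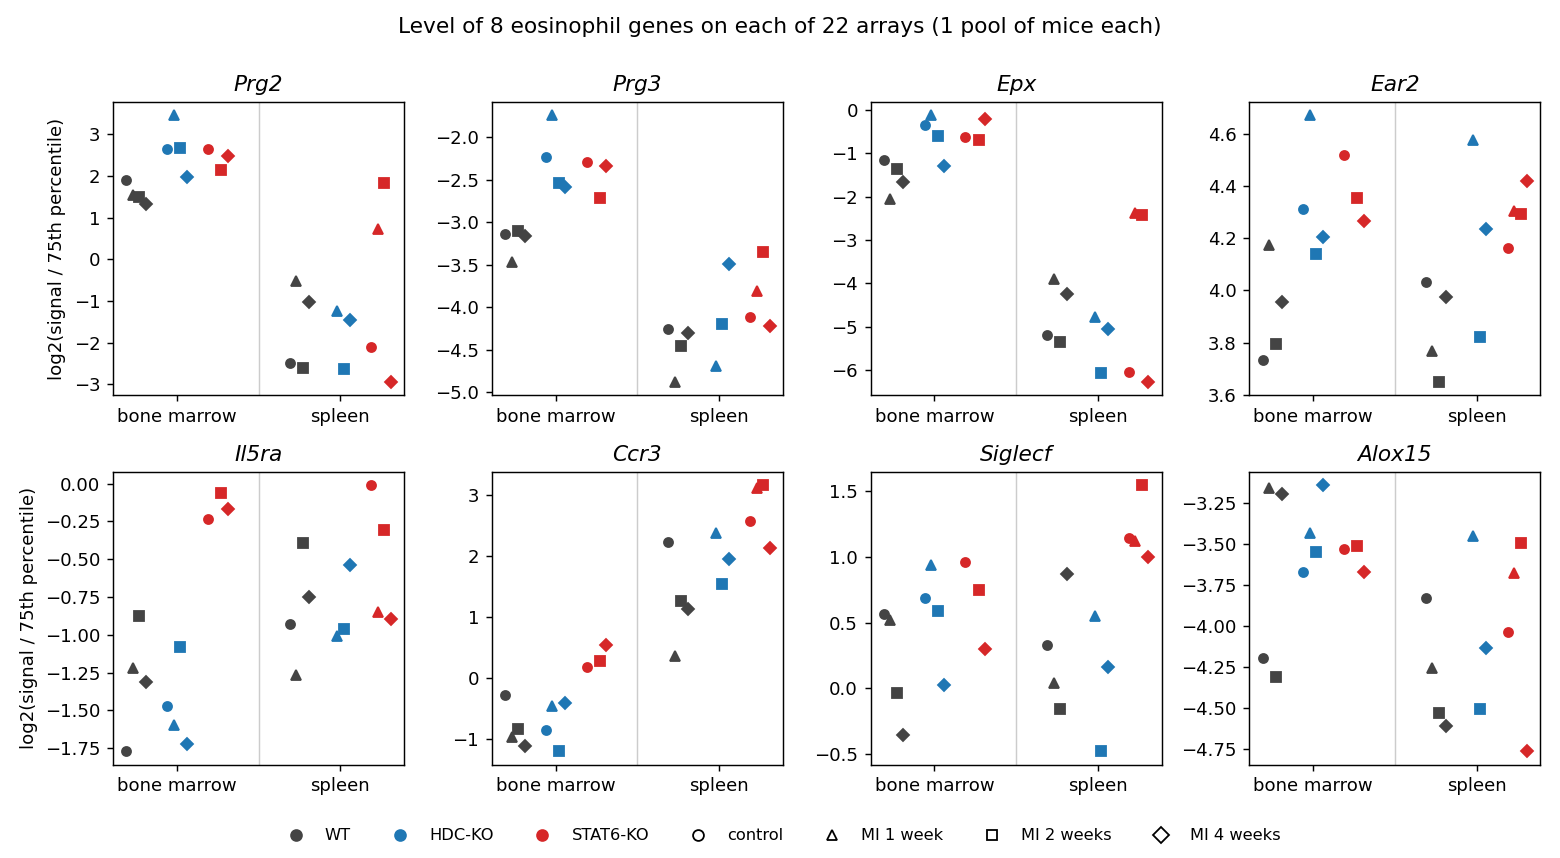
Level of each of the 8 genes (log2 of the signal over the 75th percentile of the array, y axis, own range per gene) on 22 arrays, by tissue (x axis), genotype (colour) and time point (marker); each point is 1 array of 1 pool of mice. Prg2, Prg3 and Epx sit high in bone marrow and low in spleen, Ccr3 sits the other way round, and the STAT6-KO spleen arrays of MI 1 week and 2 weeks stand above the other spleen arrays for Prg2 and Epx.

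The regulatory sequence next to these genes is shown for 4 of them that the comparisons turn on: Prg3 and Epx, which were higher in bone marrow, Ccr3, which was higher in spleen, and Il5ra, which differed between STAT6-KO and WT bone marrow. Each is the 250 bases before the gene start from RefSeq, build GRCm38.p6, on the strand of the gene, with GATA sites in capitals. The Prg3 sequence lies at chr2:84987965-84988214 (plus strand), that of Epx at chr11:87875537-87875786 (minus strand), that of Il5ra at chr6:106749038-106749287 (minus strand) and that of Ccr3 at chr9:124021721-124021970 (plus strand). No such sequence was at hand for Prg2 or Alox15. Prg2 and Prg3 are neighbours on the same chromosome.
Prg3: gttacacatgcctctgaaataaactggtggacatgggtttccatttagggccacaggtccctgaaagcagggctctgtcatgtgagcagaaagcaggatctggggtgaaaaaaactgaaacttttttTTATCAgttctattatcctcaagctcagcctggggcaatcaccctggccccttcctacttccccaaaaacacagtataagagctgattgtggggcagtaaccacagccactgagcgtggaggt
Epx: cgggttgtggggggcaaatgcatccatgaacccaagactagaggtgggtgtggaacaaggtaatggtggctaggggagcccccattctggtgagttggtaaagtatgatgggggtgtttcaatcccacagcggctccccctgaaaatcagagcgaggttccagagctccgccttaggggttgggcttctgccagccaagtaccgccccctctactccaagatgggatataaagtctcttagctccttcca
Il5ra: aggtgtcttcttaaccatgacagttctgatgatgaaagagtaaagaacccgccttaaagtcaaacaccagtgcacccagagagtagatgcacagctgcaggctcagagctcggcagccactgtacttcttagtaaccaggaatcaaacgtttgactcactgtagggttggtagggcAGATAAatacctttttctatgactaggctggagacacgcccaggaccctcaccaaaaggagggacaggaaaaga
Ccr3: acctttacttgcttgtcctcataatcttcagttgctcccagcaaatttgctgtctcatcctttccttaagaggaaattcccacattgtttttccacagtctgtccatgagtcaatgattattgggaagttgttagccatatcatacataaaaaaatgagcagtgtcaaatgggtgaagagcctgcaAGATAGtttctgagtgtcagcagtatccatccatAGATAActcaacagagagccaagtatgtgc

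GATA sites were searched on both strands as GATA with an A or T before it and an A or G after it, and 26.5% of 32851 mouse promoters of this length held at least 1. Of the 6 promoters of these genes 3 held one: Prg3 had 1 that ended 118 bases before the start, Il5ra 1 that ended 69 bases before it, and Ccr3 2 that ended 59 and 25 bases before it. A C/EBP site (TTNNGNAA) was found in 36.8% of all promoters and in those of Prg3, Ear2, Ccr3 and Siglecf, and a PU.1 site (GAGGAA, both strands) in 23.3% of all and in those of Ccr3 and Siglecf. No STAT5 site (TTCNNNGAA, in 7.02% of all) and no STAT6 site (in 5.85% of all) was in any of the 6. The Epx promoter held none of these letters. The promoters of Ear2 and Ear1 shared an unbroken run of 197 bases, and those of Ear2 and Ear10 one of 95. Sites of different factors were counted separately and may overlap. A match in letters says nothing of binding, which was not measured here.

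The first comparison asked how the 8 genes differ between CD11b+ cells of spleen and of bone marrow. The granule genes Epx and Prg2 were lower in spleen by 15.5-fold and 12.8-fold, Prg3 by 2.81-fold, and Alox15 by 1.5-fold, while Ccr3 was higher in spleen by 4.91-fold. The sizes for Epx and Prg3 varied with the processing, as given below. Ear2, Il5ra and Siglecf did not pass the test. The test was limma over all genes on the 10 pairs of arrays of the same genotype and time point, with the pair as a block and p adjusted over 27659 genes. It called 54.4% of all genes, 22.4% higher and 32% lower in spleen, and the median difference of all genes was -0.16. Of the 8 genes 5 were called, 1 higher and 4 lower, which is a share close to that of all genes. Each slide held a single tissue, so tissue cannot be told apart from slide. Pairs of the same genotype share their slides and are not independent, which the p-values do not take into account.

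Prg2, whose product is the cationic core protein of the eosinophil granule, lay between 1.33 and 3.46 (median 2.15) on the 11 bone marrow arrays and between -2.94 and 1.84 (median -1.46) on the 11 spleen arrays. The ranges overlapped through the STAT6-KO spleen MI 2 weeks array alone, the other 10 spleen arrays lying at 0.73 or below. Prg2 was lower in spleen in 10 of 10 pairs, by -3.68 on the log2 scale (SE 0.46, adjusted p = 3.70e-05). The pairs ran from -0.31 (STAT6-KO MI 2 weeks) to -5.43 (STAT6-KO MI 4 weeks).

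Prg3, which encodes the homologue of major basic protein, lay between -3.46 and -1.74 (median -2.58) in bone marrow and between -4.88 and -3.35 (median -4.22) in spleen. It was lower in spleen in 10 of 10 pairs, by -1.49 (SE 0.19, adjusted p = 4.78e-05). Epx, the peroxidase that makes hypobromous acid, lay between -2.05 and -0.12 (median -0.69) in bone marrow and between -6.27 and -2.37 (median -5.05) in spleen. It was the single one of the 8 genes whose ranges did not overlap between the tissues, with a gap of 0.32, where 13.3% of all genes tested had ranges that did not overlap. Its difference was -3.96 (SE 0.43, adjusted p = 1.18e-05, lower in 10 of 10 pairs). Without the STAT6-KO MI 4 weeks pair, which holds the Epx value that was not well above background, the difference was -3.72 for Epx, -3.49 for Prg2, -1.45 for Prg3 and -0.11 for Ear2. Over all alternatives the difference ran from -4.20 to -2.73 for Epx and from -1.59 to -0.99 for Prg3. Epx signals were also low on the spleen arrays of STAT6-KO control (20.7) and HDC-KO MI 2 weeks (33.0). The lowest signals well above background there were 14.1 and 19.6, so the size of the Epx difference is not well measured.

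Ear2, a ribonuclease of the same granules, did not show this difference. It lay between 3.73 and 4.67 (median 4.20) in bone marrow and between 3.65 and 4.58 (median 4.16) in spleen, with a difference of -0.09 (SE 0.10, adjusted p = 0.475) and 6 of 10 pairs below 0. Its paralogs were counted as a list, which also held the ribonucleases Ang and Rnase4, which are not Ear genes. Of 6 measured, 4 were lower in spleen: Ang by -0.92, Ear6 by -0.84, Ear1 by -0.62 and Rnase2a by -0.42. Ear10 and Rnase4 did not pass the test, with SEs of 0.13 and 0.17. The list had a median difference of -0.52, against -0.16 over all genes.

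Ccr3, the receptor through which eotaxins attract eosinophils, lay between -1.20 and 0.54 (median -0.46) in bone marrow and between 0.36 and 3.16 (median 2.14) in spleen. Only the WT spleen MI 1 week array (0.36) reached into the bone marrow range. The difference was 2.30 (SE 0.16, adjusted p = 4.76e-07), above 0 in 10 of 10 pairs, and the pairs ran from 1.32 to 2.88. It was 2.37 without the STAT6-KO MI 4 weeks pair. Of 5 tested chemokine genes listed as ligands of Ccr3, 2 were higher in spleen, Ccl5 (difference 3.78) and Ccl24 (2.28). The other 3 were lower, among them Ccl8 (-1.92) and Ccl7 (-1.87). The list was set by name, and whether each of its products binds mouse Ccr3 was not tested. Ccl7 was well above background on 5 of the 11 spleen arrays, so the size of its difference is not well measured. Ccl11, the first eotaxin, was not well above background on any array.

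Il5ra lay between -1.77 and -0.06 (median -1.22) in bone marrow and between -1.26 and -0.01 (median -0.85) in spleen. The difference of 0.30 (SE 0.17, adjusted p = 0.160) was above 0 in 7 of 10 pairs. Without the STAT6-KO MI 4 weeks pair it was 0.41 and passed the test (adjusted p = 0.0406). Its ligand Il5 was not well above background on any array. Among the other genes of IL-5, IL-3 and GM-CSF signalling, 6 were tested, 1 was higher and 3 were lower in spleen. The lower ones were Csf2ra (-0.75), Il3 (-0.60) and Csf2rb (-0.51), the last being the signalling chain that IL-5, IL-3 and GM-CSF receptors share. The higher one was Csf2, which was not well above background on any bone marrow array.

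Siglecf lay between -0.35 and 0.96 (median 0.57) in bone marrow and between -0.48 and 1.55 (median 0.55) in spleen, and its difference was 0.08 (SE 0.20, adjusted p = 0.775). On its dimmer probe, tested with all probes, it was lower in spleen by -0.47 (SE 0.18, adjusted p = 0.0435), so that the 2 probes differed in sign. Alox15 lay between -4.31 and -3.14 (median -3.53) in bone marrow and between -4.76 and -3.45 (median -4.13) in spleen. It was lower in spleen in 8 of 10 pairs, by -0.59 (SE 0.18, adjusted p = 0.0162). With quantile normalization its adjusted p was 0.0533. The differences without the STAT6-KO MI 4 weeks pair were 0.01 for Siglecf and -0.53 for Alox15 (adjusted p = 0.0375).

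**Figure D2:**
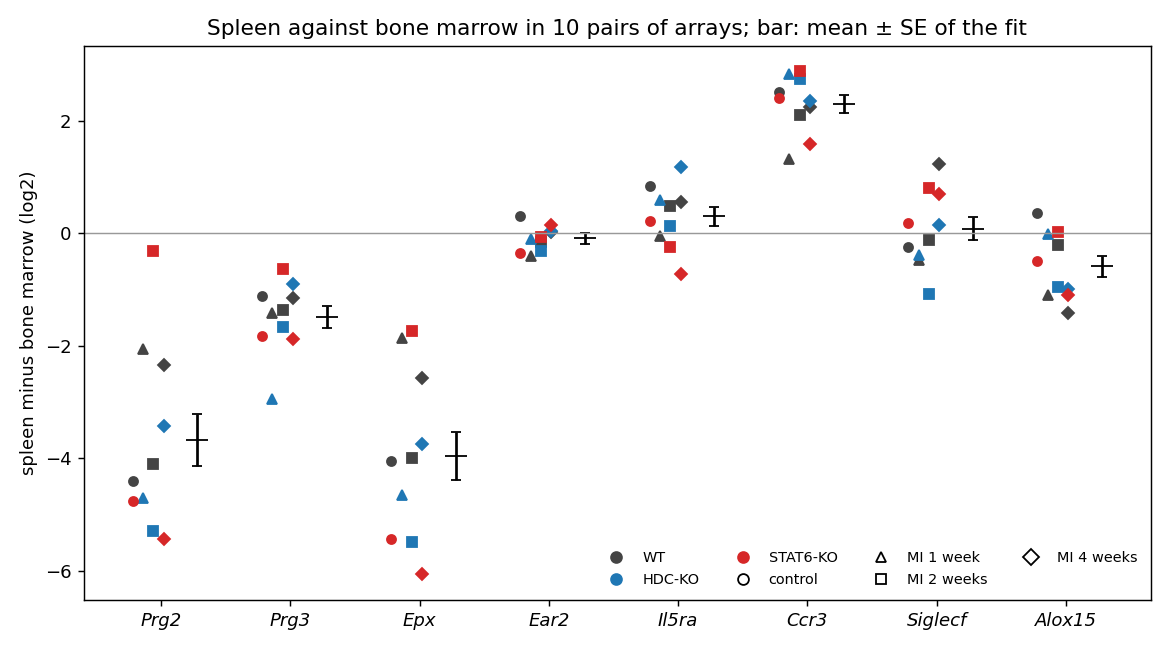
Difference between the spleen and the bone marrow array of the same genotype and time point (log2, y axis) for each of the 8 genes (x axis), with 1 point for each of 10 pairs and the mean ± SE of the limma fit as a bar. All 10 points lie below 0 for Prg2, Prg3 and Epx and above 0 for Ccr3, and points of Ear2, Il5ra and Siglecf lie on both sides of 0.

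Of 13 factors known from granulocyte and eosinophil development, 8 were lower and 2 higher in spleen. The lower ones included Cebpe (-1.82), the C/EBP factor of terminal granule formation, Spi1 (-0.92), which encodes PU.1, and Gata1 (-0.91), and the higher ones included Irf8 (1.32). Of 9 genes of lipid mediator synthesis and response 3 were lower, Alox5 (-1.82), Alox12 (-1.70) and Alox5ap (-1.15), and 2 were higher, among them Cysltr1 (0.89). Of 11 type 2 cytokine and receptor genes 4 were higher and 3 lower, among them Il13, the IL-4 receptor chain Il4ra (1.62) and the prostaglandin D2 receptor Ptgdr2 (1.78) on the higher side and Il33 on the lower. Il13 was well above background on 1 and Ptgdr2 on 2 of the 11 bone marrow arrays, and Il33 on no spleen array, so the sizes of these differences are not well measured.

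Markers of other cells were counted in the same comparison, in which 54.4% of all genes were called, 22.4% higher and 32% lower in spleen. The same shares apply to the gene lists above. A list with a count near them is not read as a result about its cells. A summed level adds the signals of different probes and is weighted to the brightest of them. All 7 neutrophil granule genes were lower in spleen (median difference -2.79, for Mpo -2.79 and Elane -3.62), and the summed level of the list, in units of the 75th percentile, was 263 to 469 in bone marrow and 105 to 226 in spleen. Of 10 basophil and mast cell genes 5 were lower, among them Prss34 by -3.17 and Mcpt8 by -1.99, and 2 were higher. The mean level of Kit was higher in spleen (-0.09) than in bone marrow (-1.10). That of Cma1 was too (-5.91 against -7.31), but Cma1 was well above background on 1 of the 11 bone marrow arrays. The summed level of this list was 2.68 to 7.28 in bone marrow and 1.77 to 4.19 in spleen. All 5 macrophage and monocyte genes were higher in spleen (median 2.03, summed level 71.3 to 130 against 36.5 to 57.7). Itgam, the gene of CD11b itself, was lower in spleen by -1.47. Of the lists for mature neutrophils, 3 of 5 genes were lower, and higher in spleen were 3 of 4 red pulp macrophage genes, 2 of 4 T cell genes (1 lower), 2 of 3 plasma cell genes and 2 of 4 erythroid genes. Mpo and Mcpt8 were well above background on all 22 arrays and Adgre1 on all but 1 of them. The part of the mixture of cells in the differences of the 8 genes was not tested.

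The next comparison asked how STAT6-KO differs from WT. In bone marrow all 8 genes were above 0 on average, and Il5ra passed the test, 2.19-fold higher. The fit was limma over the 11 arrays of the tissue with genotype and time point as additive terms, so that what counts as error is how far the effect of genotype varied from one time to another. It called 4.65% of 27090 genes, 4.02% of them in the direction of higher in STAT6-KO, and of the 8 genes 1 (higher) was called. At an unadjusted p under 0.05 stood 7 of the 8 genes and 6098 of all genes. The median difference was 0.90 over the 8 genes and 0.08 over all genes. Quantile normalization changed the split of called genes from 1088 higher and 171 lower to 1025 and 477, and median scaling to 860 and 391.

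Il5ra lay at -1.77 (control), -1.22, -0.87 and -1.31 (MI 1, 2 and 4 weeks) on the WT bone marrow arrays and at -0.24 (control), -0.06 and -0.17 (MI 2 and 4 weeks) on the STAT6-KO arrays. The STAT6-KO arrays were all above the WT arrays, with a gap of 0.64, and the HDC-KO arrays (-1.72 to -1.08) lay in the WT range. The difference was 1.13 (SE 0.19, adjusted p = 0.0201). The call was lost when any of 3 time points was left out. Without the control arrays the adjusted p was 0.120, without MI 2 weeks 0.146 and without MI 4 weeks 0.105, at differences of 0.97 to 1.29. Fits with a time point left out called fewer of all genes too, 11 to 1012 against 1259. The Il5ra call was also lost with normexp background correction (0.97, adjusted p = 0.0528) and with the STAT6-KO and WT arrays fitted alone (1.17, adjusted p = 0.132).

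Ccr3 lay at -0.28, -0.96, -0.84 and -1.11 on the WT bone marrow arrays (control, MI 1, 2 and 4 weeks) and at 0.18, 0.28 and 0.54 on the STAT6-KO ones (control, MI 2 and 4 weeks), again without overlap. The difference of 1.15 (SE 0.28) missed the threshold (adjusted p = 0.0639). Of the granule genes, Prg2 lay at 1.91, 1.55, 1.51 and 1.33 in WT and at 2.65, 2.15 and 2.49 in STAT6-KO in the same orders. The groups did not overlap for Prg2, Prg3, Epx or Ear2, yet the differences of 0.98 (SE 0.27), 0.82 (SE 0.24), 1.05 (SE 0.34) and 0.56 (SE 0.14) had adjusted p of 0.0897, 0.102, 0.128 and 0.0648. Siglecf differed by 0.62 (SE 0.14, adjusted p = 0.0537) on its brighter probe and by 0.11 (adjusted p = 0.796) on the dimmer one. Alox15 differed by 0.24 (SE 0.27, adjusted p = 0.650), above 0 at 2 of 3 time points. In all, the groups did not overlap for 6 of the 8 genes, and for 14% of all genes tested.

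Among the paralogs of Ear2, Ear6 (1.08) and Ear1 (0.78) were higher in STAT6-KO bone marrow, 2 of 6 tested. The eotaxin Ccl24, which IL-4 is known to induce in macrophages, was lower by -2.75, 1 of 5 listed ligands of Ccr3. Id1 (1.07) was higher and Irf8 (-0.68) lower, 2 of 13 lineage factors. Pla2g4a (0.76), a phospholipase that frees arachidonic acid, was the 1 lipid mediator gene of 9 that was called, and Hrh4 (1.87), a histamine receptor of eosinophils, was the 1 type 2 gene of 10 that was called. Of the 5 tested genes of IL-5, IL-3 and GM-CSF signalling 0 were called. None of the neutrophil granule, basophil and mast cell or macrophage markers passed the test in this comparison (7, 9 and 5 tested), while 2 of 4 T cell genes and 1 of 3 plasma cell genes were higher. Their part in the differences of the 8 genes was not tested.

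In spleen all 8 genes were likewise above 0 on average in STAT6-KO, and 0 of the 8 were called, where limma called 1.93% of 26472 genes. At an unadjusted p under 0.05 stood 3 of the 8 and 6050 of all genes. Ccr3 lay at 2.22, 0.36, 1.26 and 1.12 on the WT spleen arrays (control, MI 1, 2 and 4 weeks) and at 2.57, 3.11, 3.16 and 2.14 on the STAT6-KO ones. STAT6-KO was above WT at 4 of 4 time points, by 1.50 on average (SE 0.39, adjusted p = 0.0852). Without the control arrays the difference was 1.89 and passed the test (adjusted p = 0.0491), and without the STAT6-KO MI 4 weeks array it was 1.67 and did not (adjusted p = 0.112). Siglecf lay at 0.33, 0.04, -0.15 and 0.87 in WT and at 1.15, 1.13, 1.55 and 1.00 in STAT6-KO, without overlap, and differed by 0.93 (SE 0.28, adjusted p = 0.114), or by 1.12 without that array (adjusted p = 0.111). On the dimmer probe of Siglecf the difference was 0.60 (adjusted p = 0.236).

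The granule genes of the STAT6-KO spleen were spread widely. Prg2 lay at -2.11 in control, 0.73 at MI 1 week, 1.84 at MI 2 weeks and -2.94 at MI 4 weeks, against -2.49, -0.51, -2.60 and -1.01 in WT. Epx lay at -6.04, -2.37, -2.42 and -6.27, against -5.20, -3.90, -5.34 and -4.24. The arrays of MI 1 week and MI 2 weeks were thus the highest of all spleen arrays for both genes, and those of control and MI 4 weeks were not above WT for Epx. The average differences were 1.03 (SE 0.91, adjusted p = 0.540) for Prg2 and 0.40 (SE 0.79, adjusted p = 0.798) for Epx. Without the STAT6-KO MI 4 weeks array they were 2.05 (adjusted p = 0.153) and 1.27 (adjusted p = 0.276).

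In the same comparison Prg3 was above WT at 4 of 4 time points by 0.60 (SE 0.27, adjusted p = 0.236), and Ear2 at 4 of 4 by 0.44 (SE 0.16, adjusted p = 0.167), both without overlap of the groups. With Siglecf, that made 3 of the 8 genes without overlap, against 5.66% of all genes tested. Il5ra differed by 0.32 (adjusted p = 0.431) and Alox15 by 0.31 (adjusted p = 0.536). Without the STAT6-KO MI 4 weeks array the differences were 0.86 for Prg3, 0.42 for Ear2, 0.50 for Il5ra and 0.50 for Alox15, with adjusted p of 0.123 to 0.361. On the STAT6-KO MI 2 weeks array the summed level of the basophil and mast cell genes was the lowest of the 11 spleen arrays (1.77). This sum is weighted to Kit and Mcpt4 (spleen medians -0.09 and -1.34). Mcpt8 and Prss34 (-1.72 and -2.73) add less, so the sum does not measure basophils alone. The summed level of the neutrophil granule genes was 118 (range over the spleen arrays 105 to 226). Which cells made Prg2 on this array was not tested. Of the marker lists, Ngp, a neutrophil granule gene, was the 1 that was called in STAT6-KO spleen (-1.24). Ccl24 was lower in STAT6-KO spleen by -3.52, and no paralog of Ear2 was called.

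**Figure D3:**
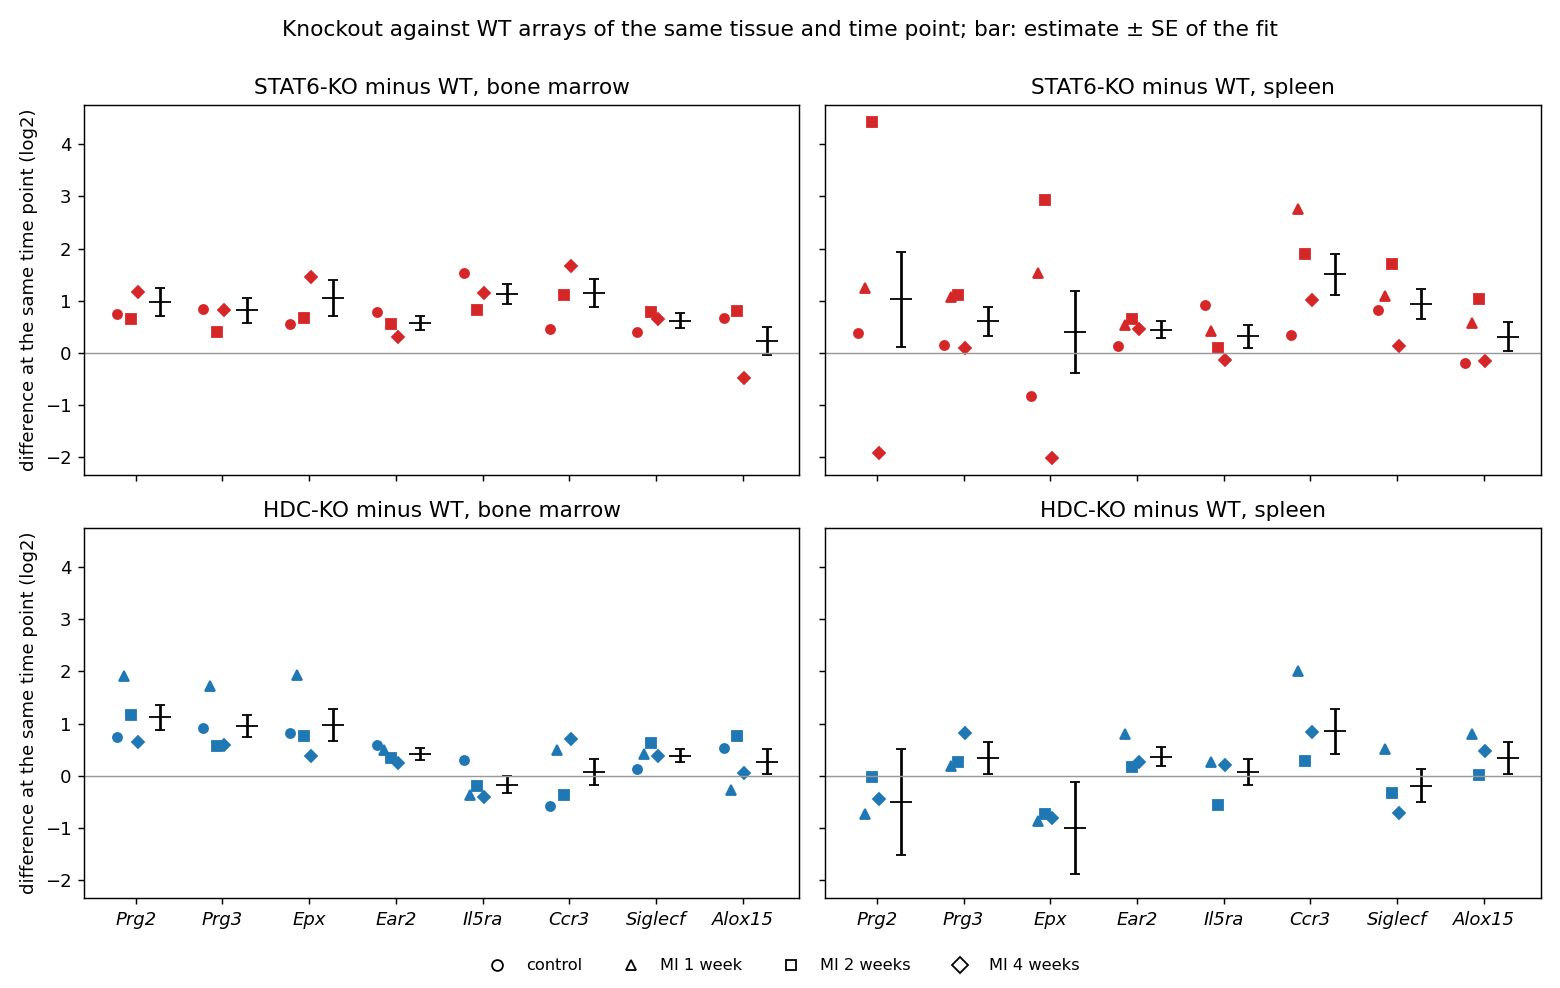
Difference between a knockout array and the WT array of the same tissue and time point (log2, y axis) for each of the 8 genes (x axis), for STAT6-KO (upper row) and HDC-KO (lower row) in bone marrow (left) and spleen (right), with the estimate ± SE of the limma fit as a bar. In STAT6-KO bone marrow all points but 1 of Alox15 lie above 0; in STAT6-KO spleen those of Prg2 run from -1.92 to 4.43; and in HDC-KO the points of Prg2 and Epx lie above 0 in bone marrow and below 0 in spleen.

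The same question was asked of HDC-KO, against the same WT arrays. In bone marrow 0 of the 8 genes were called, where limma called 0.447% of all genes, and 5 of the 8 had an unadjusted p under 0.05, as did 5755 of 27090 genes in all. Prg2 lay at 2.66 (control), 3.46, 2.67 and 1.97 (MI 1, 2 and 4 weeks), above all 4 WT arrays, and differed by 1.12 (SE 0.24, adjusted p = 0.112). Prg3 lay at -2.23, -1.74, -2.54 and -2.58 against -3.14, -3.46, -3.10 and -3.16 in WT, also without overlap, and differed by 0.94 (SE 0.21, adjusted p = 0.117). These were the 2 of the 8 genes whose groups did not overlap, against 8.03% of all genes tested. Epx (0.97, SE 0.30, adjusted p = 0.166), Ear2 (0.42, SE 0.12, adjusted p = 0.153) and Siglecf (0.38, SE 0.12, adjusted p = 0.171) were above WT at 4 of 4 time points. Il5ra, Ccr3 and Alox15 had points on both sides of 0, with differences of -0.17, 0.07 and 0.26. The dimmer probe of Siglecf gave 0.03 (adjusted p = 0.938).

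In spleen, where 3 time points could be paired, 0 of the 8 were called and 0 had an unadjusted p under 0.05, where limma called 2.83% of all genes and 5984 of 26472 had an unadjusted p under 0.05. Prg2 lay at -1.24, -2.62 and -1.46 (MI 1, 2 and 4 weeks) and Epx at -4.76, -6.08 and -5.05, each below the WT array of the same time point. Their differences were -0.51 (SE 1.02, adjusted p = 0.813) and -1.01 (SE 0.88, adjusted p = 0.540). Ccr3 was above WT at 3 of 3 time points, by 0.85 (SE 0.44, adjusted p = 0.296). The other 5 genes differed by -0.19 to 0.36, with adjusted p of 0.285 to 0.907. Among them Siglecf gave -0.19 on its brighter and 0.13 on its dimmer probe (adjusted p = 0.843). Of the list of Ear2 paralogs, Ang, which is not an Ear gene, was lower in HDC-KO spleen by -0.92. Of the other lists, Marco (2.31), from a list of 5 macrophage and monocyte genes, was higher in HDC-KO spleen. Id1 (0.95), from the 13 lineage factors, and Cd8a (0.74), from the 4 T cell genes, were higher in HDC-KO bone marrow.

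Whether a genotype acted differently in the 2 tissues was tested by an interaction term, with the pair as a block, over the 20 paired arrays. For STAT6-KO 0 of the 8 genes were called (0.351% of all genes were) and 0 had an unadjusted p under 0.05, as 3800 of 27659 genes did. For HDC-KO 0 of the 8 were called (0.991% of all genes) and 0 had an unadjusted p under 0.05, as 4100 of all genes did. For Il5ra the effect of STAT6-KO was lower by -0.71 in spleen than in bone marrow (SE 0.34, adjusted p = 0.407). That Il5ra passed in bone marrow and not in spleen is therefore not shown to be a difference between the tissues.

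The last comparison asked how the 8 genes change after MI. In spleen 0 of the 8 genes were called at any time, where limma called 7.76% of all genes at MI 1 week, 2.24% at 2 weeks and 0% at 4 weeks, and 0 of the 8 had an unadjusted p under 0.05. In bone marrow 0 of the 8 were called, where 0.148%, 0% and 0% of all genes were, and 0, 1 and 1 of the 8 had an unadjusted p under 0.05 at 1, 2 and 4 weeks. At the times with 0% called, 2308 genes of the spleen (4 weeks) and 2025 and 5181 of the bone marrow (2 and 4 weeks) had an unadjusted p under 0.05. At the other times the share of all genes at that p was 27.2% and 23.7% in spleen (1 and 2 weeks). It was 19.7% in bone marrow (1 week).

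Prg2 and Epx gave the highest differences among the 8 genes in spleen. At MI 1 week they were above control by 2.30 (SE 1.21, adjusted p = 0.263) and 2.34 (SE 1.05, adjusted p = 0.195), which placed both at the 99.9th percentile of the differences of all genes. At MI 2 weeks the differences were 1.51 (SE 1.21) and 1.41 (SE 1.05), and at MI 4 weeks 0.84 (SE 1.21) and 0.83 (SE 1.05). In WT, Prg2 lay at -2.49 in control, -0.51 at 1 week, -2.60 at 2 weeks and -1.01 at 4 weeks. In STAT6-KO it stood at 0.73 and 1.84 at 1 and 2 weeks, between -2.11 in control and -2.94 at 4 weeks. Epx had the same order of arrays in WT and, in STAT6-KO, nearly equal values at 1 and 2 weeks. Without the STAT6-KO arrays, which leaves 1 control array, the differences at MI 1 week were 1.81 for Prg2 and 1.27 for Epx. No test is given for this fit, because the spread of the control cannot be measured on 1 array. Without those arrays the Epx difference at MI 2 weeks was -0.11. Without the STAT6-KO MI 4 weeks array alone, the MI 4 weeks differences were 2.43 for Prg2 and 2.18 for Epx (adjusted p = 0.830 for both).

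Among the 7 neutrophil granule genes Elane (1.88) and Prtn3 (1.66) were higher at MI 1 week in spleen. Ltc4s (0.96), the leukotriene C4 synthase of eosinophils and mast cells, was the 1 lipid mediator gene of 9 that was higher then. Il4ra (-1.70) was lower at that time, and Ang (-1.08) and Spi1 (-1.09) at MI 2 weeks. Among the 4 T cell genes Cd3e (-1.98) and Cd8a (-1.38) were lower at MI 1 week. No other gene of the 6 pathway lists was called in spleen. In bone marrow Alox12 (-3.45) alone among them was called, at MI 1 week.

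In bone marrow Siglecf lay at 0.57, 0.52, -0.03 and -0.35 in WT (control, MI 1, 2 and 4 weeks), at 0.69, 0.94, 0.59 and 0.02 in HDC-KO, and at 0.96, 0.75 and 0.30 in STAT6-KO (control, MI 2 and 4 weeks). In all 3 genotypes the 4 weeks array was the lowest, and the difference from control was -0.75 (SE 0.14, adjusted p = 0.0802). The dimmer probe gave 0.33 (SE 0.21, adjusted p = 0.426), so this course rests on 1 probe. Il5ra was above control by 0.49 at MI 2 weeks (SE 0.19, adjusted p = 0.665). Prg2, Prg3 and Epx differed from control by -0.48 to 0.24 in bone marrow at the 3 times.

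**Figure D4:**
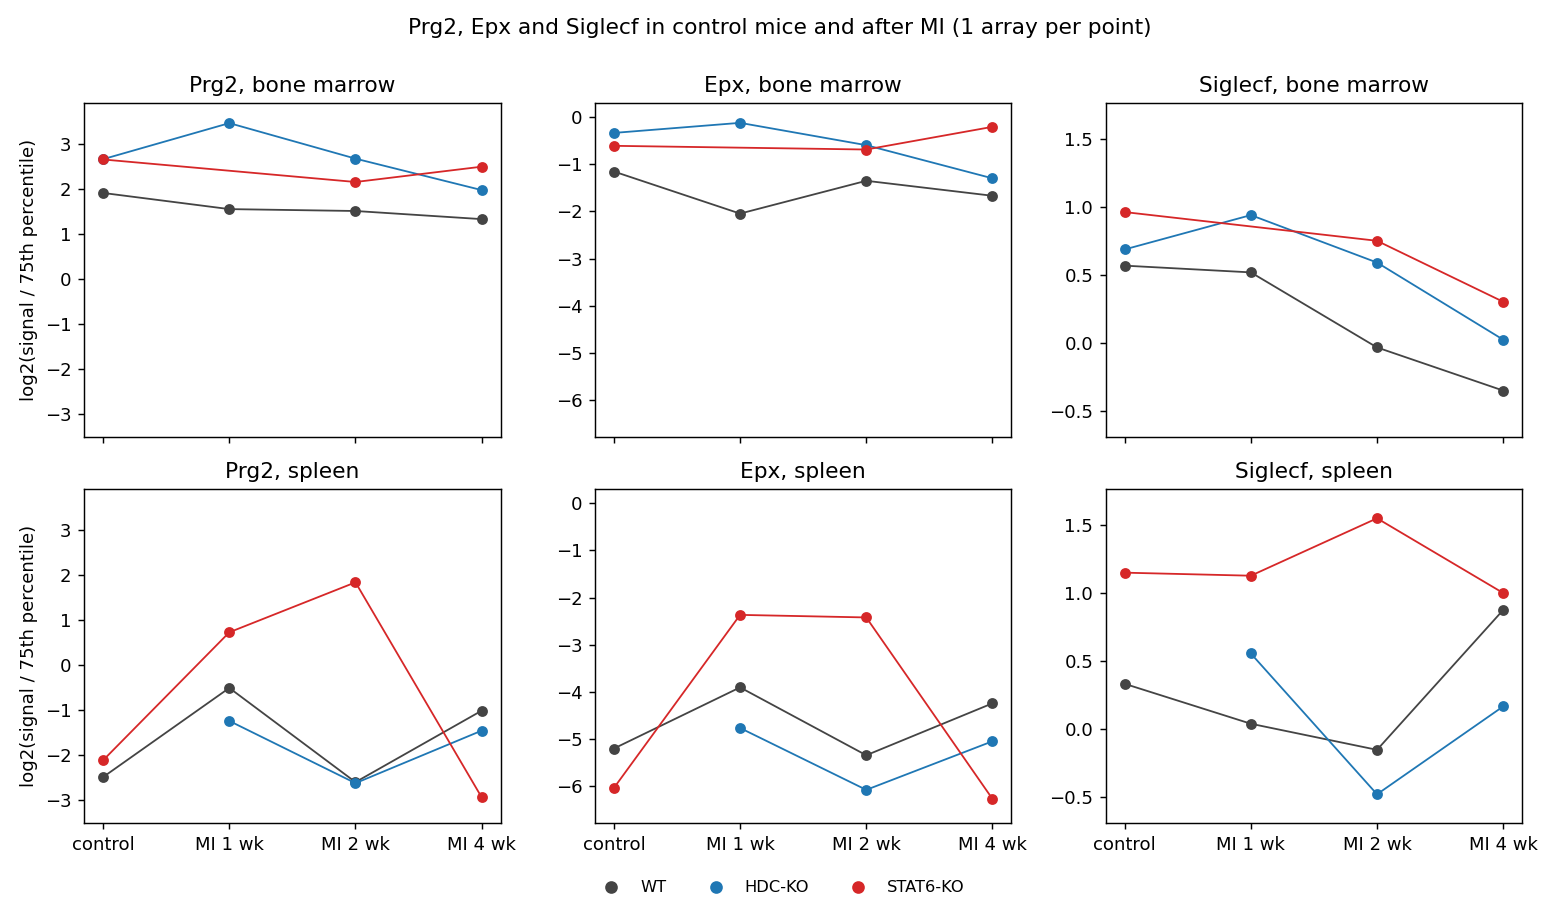
Level (log2 of the signal over the 75th percentile of the array, y axis) of Prg2, Epx and Siglecf in bone marrow (upper row) and spleen (lower row) by time after MI (x axis, control first) and genotype; each point is 1 array and the lines join arrays of 1 genotype. Prg2 and Epx peak at MI 1 or 2 weeks in STAT6-KO spleen, at 1.84 and -2.37, and Siglecf is lowest at MI 4 weeks in all 3 genotypes of bone marrow.

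The correlations of the 8 genes with each other are descriptions over 22 arrays, which share tissues, slides and WT partners. Prg2 and Epx ran together most closely, with r = 0.984 over all arrays and 0.944 after the mean of each tissue was taken out. Prg3 followed Prg2 in bone marrow (r = 0.935) more than in spleen (r = 0.444). Ccr3 ran against Prg2 over all arrays (r = -0.64), which is the tissue difference, and with it within the tissues (r = 0.355). Within the tissues Siglecf ran with Ear2 (r = 0.638), Prg2 (r = 0.591) and Ccr3 (r = 0.58), and less with Il5ra (r = 0.265) and Alox15 (r = 0.244). Il5ra and Alox15 did not run with each other (r = -0.002).

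Of 16652 genes compared, those closest to each member within the tissues were as follows. Epx was the closest to Prg2 and Prg2 to Epx, with Marchf8 second for both (r = 0.802 and 0.821). Ear6 (r = 0.88) and Rnase2a (r = 0.85), both of the same ribonuclease family, were closest to Ear2. For Ccr3 they were Enpp1 (r = 0.901), Slc15a2 (r = 0.896) and Serpinb6a (r = 0.879), which also followed it over all arrays (r = 0.942 to 0.976). For Il5ra they were Selenov (r = 0.869), Etfbkmt (r = 0.864) and Zfp597 (r = 0.856), and for Siglecf Sipa1l2 (r = 0.887), Gtf2a1 (r = 0.878) and Rab11fip5 (r = 0.862). For Prg3 the closest was Fam3c (r = 0.866) and for Alox15 Slc7a7 (r = 0.763).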

How the data were processed

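RNA of CD11b+ cells was hybridised to one-colour Agilent mouse arrays, and the authors read the scans with Agilent Feature Extraction 11.0.1.1. The deposited values used here are spot intensities on the linear scale, background-subtracted and spatially detrended by that software and not scaled between arrays. Their later steps (Genespring, and GCRMA in the submitters' processing notes) were not used. Control spots and 3055 spots marked as outliers were left out (0 spots were saturated), and levels are log2 of the deposited intensity minus log2 of its 75th percentile on that array. Probes were named by RefSeq transcript (27234 of 39429 probes), and a gene took its probe with the highest mean. The 75th percentile is set by the whole mixture of cells, so a difference is relative to it.

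Tests were made with limma 3.58.1 in R 4.3.3 over all genes well above background on at least 2 arrays of the fit, with p adjusted by Benjamini-Hochberg and a threshold of 0.05. No condition had a second array. Comparisons of genotypes, and of times after MI, used the 11 arrays of a tissue with additive terms, so that other time points or genotypes stand in for replicates and p-values measure their spread, not that between mice. In the comparison of tissues the p-values measure the spread between pairs of different genotype and time, again not that between mice. The number of arrays limits the precision. The code of the fits was tested on simulated data, with no value given here. The alternatives were normexp (offset 50, run on the median spot signal because the mean was not at hand), quantile normalization, median scaling, a floor on low signals, 2 filters, other uses of the probes of a gene, other blocks, the 2 groups alone, the methods' test, and leaving out each pair, time point or genotype. Leaving out the doubtful STAT6-KO spleen MI 4 weeks array was added after the data were seen.

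The 8 genes and all lists were chosen with earlier results of these data known. All 8 genes were reported with every probe. Of the other lists (ribonuclease paralogs, IL-5 family signalling, Ccr3 ligands, lineage factors, lipid mediators, type 2 genes and markers of other cells), counts and at most 4 examples with the largest differences past the threshold were given, and for each of the 8 genes the 3 genes most correlated with it within tissues were found. Listed genes without a matched probe (Ear3, Ear7, Ear12, Ear14, Ly6g, Cd68, Ly6c2 and Hbb-b1) were not analysed here. Promoters came from RefSeq (GRCm38.p6), for 6 of the 8 genes. Plots were made in Python 3.11.15 by matplotlib 3.10.9.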

Additional observations from a re-analysis of the deposited data

Results flagged for a closer look

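For 2 genes every HDC-KO minus WT difference had 1 sign in bone marrow and the other in spleen. For Prg2 the 4 time points of bone marrow gave 0.64 to 1.91 and the 3 of spleen -0.73 to -0.02, and the difference between the tissues, tested as an interaction by limma, was -1.25 (SE 1.14, adjusted p = 0.688). For Epx bone marrow gave 0.37 to 1.92 and spleen -0.86 to -0.73, and the interaction was -1.51 (SE 0.98, adjusted p = 0.537). Neither passed the test, and since Prg2 and Epx follow each other across arrays (r = 0.984), they are not separate observations. The WT arrays are shared by both genotypes' comparisons, and HDC-KO and WT lay on different slides in each tissue, so genotype and slide cannot be told apart.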

How the results depend on the processing

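In the comparison of tissues between 4 and 6 of the 8 genes were called in all 23 alternatives, and Prg2, Prg3, Epx and Ccr3 kept their direction and their call in each that tested them. Alox15 lost its call with normexp (adjusted p = 0.0564) and quantile normalization (0.0533) and has a fold under 2. Of the other counts of called members (main value 1 in STAT6-KO bone marrow, 0 elsewhere), the following moved. In STAT6-KO bone marrow it was 3 with quantile normalization, 2 with a floor, 4 with genes well above background on every array, 0 with the 2 groups alone, 3 by the methods' t-test and 0 after Benjamini-Hochberg, and 0 to 1 with a time point left out. With normexp it stayed 1, but Il5ra lost its call (adjusted p = 0.0528) and Ear2 gained one (0.65, adjusted p = 0.0447). In STAT6-KO spleen it was 1 by the methods' t-test and 0 to 1 with a time point left out. In HDC-KO it was 1 in spleen with the 2 groups alone (Epx) and 1 in bone marrow by the methods' t-test (Prg2). At MI 1 week in spleen it moved only without the STAT6-KO arrays, a fit with 1 control array for which no count is given. At MI 4 weeks in bone marrow it was 1 with genes well above background on every array (Siglecf, adjusted p = 0.0419). The cause was not tested. Counts over all genes moved as well: in STAT6-KO bone marrow they ran from 0 to 1502 over the alternatives. Quantile normalization gave 1025 genes higher and 477 lower there. These counts of members are therefore not read as a result about the 8 genes.

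Signs turned for differences near 0: in the tissues for Ear2 with quantile normalization (0.020) and Siglecf with the mean of its probes (-0.20), for Il5ra in HDC-KO spleen with median scaling (-0.10), the 2 groups alone (-0.034) and the methods' t-test (-0.0014), and for Siglecf at MI 1 week in bone marrow by that test (-0.0100). For Prg2 the STAT6-KO interaction was 0.68 without the STAT6-KO MI 4 weeks pair. With 1 pair, time point or genotype left out, signs turned in these ranges: Siglecf between tissues -0.051 to 0.20, Prg2 (-0.10 to 2.01) and Epx (-0.44 to 1.21) in STAT6-KO spleen, Alox15 in STAT6-KO bone marrow (-0.0036 to 0.57), Il5ra in HDC-KO spleen (-0.044 to 0.37), Ccr3 in HDC-KO bone marrow (-0.15 to 0.28), Epx at MI 2 weeks in spleen (-0.11 to 2.59) and the STAT6-KO interaction of Prg2 (-2.17 to 0.98).

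Counts over all genes moved more: over the alternatives from 6098 to 18375 between tissues (15048 in the report), 4 to 911 in STAT6-KO spleen (511), 0 to 1502 in STAT6-KO bone marrow (1259), 0 to 2620 in HDC-KO spleen (750), 3 to 989 in HDC-KO bone marrow (121), 0 to 3339, 0 to 1025 and 0 to 198 in spleen after MI (2054, 593 and 0), 0 to 545, 0 to 128 and 0 to 592 in bone marrow after MI (40, 0 and 0), and 0 to 335 and 0 to 518 for the interactions (97 and 274). In STAT6-KO bone marrow 1088 genes were higher and 171 lower, against 1025 and 477 with quantile normalization. No paired analysis was possible by replicate number because the labels carry none and each condition had 1 array. Each slide held 1 tissue and 1 genotype, so between tissues slide was tried as a random block, which does not separate tissue from slide.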
